A study of Rattus norvegicus with 9 samples.

Results

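Granins are acidic proteins that peptide-secreting neurons pack into dense-core granules together with their hormones, and a small set of enzymes cuts and finishes the hormone precursors on the way to and inside those granules. Of this machinery, 10 genes were followed in the supraoptic nucleus of the hypothalamus, home of magnocellular vasopressin and oxytocin neurons: the granins Vgf, Chga, Chgb and Scg2, the convertase chaperone Scg5, the convertases Pcsk1, Pcsk2 and Furin, the carboxypeptidase Cpe and the amidating enzyme Pam. They were found by their symbols: every probe set annotated to exactly 1 of these symbols was taken, which gave 17 of the 8799 probe sets on the array and 8 of the 10 genes, among 4737 genes that the array covers in this way. Chga and Pcsk1 had no probe set under this rule and were not analysed here.

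The animals were male Sprague Dawley rats of 10 to 12 weeks, in a control group, a group dehydrated for 1 day and a group dehydrated for 3 days, with 3 Affymetrix arrays each. The array titles carry the letters a, b and c in each group. What the letters stand for is not said, nor whether an array held 1 animal or a pool, so p-values measure the spread between these arrays, which may be partly technical. The question the series poses is how transcript levels in this nucleus move over the course of dehydration.

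In a magnocellular neuron, Furin acts early, in the trans-Golgi network, while Pcsk1 and Pcsk2 cut precursors at pairs of basic residues within the maturing granule. Scg5 (also called 7B2) binds pro-Pcsk2 and is needed for its activation. Cpe then trims the exposed basic residues, and Pam turns a C-terminal glycine into the amide that both vasopressin and oxytocin carry. Vgf, Chgb and Scg2 help granules form and are themselves cut into peptides.

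Signals below are MAS5 intensities on a linear scale, and differences are in log2(signal + 4) with the standard error of a limma fit over all 9 arrays. Of the 17 probe sets, 13 had a mean signal over the 9 arrays of at least 23.1 and were tested, among 5247 tested in all. The 4 untested ones were all further probe sets of Pam (M63662_s_at, M82845_s_at, rc_AA799575_i_at and rc_AA799575_r_at), with signals between 1.0 and 36.2. One tested probe set, Furin X55660_at, had a control mean under that limit and passed through its 3-day arrays. A gene with several probe sets is represented by the brightest one, and the others are given beside it.

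The arrays themselves differed in range. Their median signals lay between 26.8 and 40.3, and the brightest signal was 2105 on control array c and 2239 on 1-day array c, against 3867 to 6295 on the other 7. Values without both of these arrays, a choice made after seeing the data, are given beside each member whose difference from control then changes direction. The 6 markers of magnocellular neurons had a summed signal of 3016 to 6891 in control. The sum was 2919 to 7463 after 1 day and 8499 to 11431 after 3 days, without overlap between 3 days and control. The hormone genes Avp and Oxt, with control means of 2373 and 1871, weigh most in this sum. Taken singly, 4 of the 6 markers stood higher and 2 lower than control at 3 days. The summed signal of the 6 measured markers of endothelium, mural cells and blood ranged from 1789 to 1885 in control. It ranged from 1969 to 2653 after 1 day, then 1077 to 1378 after 3 days, again without overlap. Of the 5 tested markers of this list, 2 stood higher and 3 lower than control at 3 days. Sums for 9 general neuron markers (7520 to 9634 in control, 9033 to 10035 at 3 days), 9 astrocyte, 7 oligodendrocyte, 6 microglial, 9 endocrine and 8 neighbouring hypothalamic markers overlapped between control and both later groups, and 0 markers of any list were at 0 on an array. The part of these shifts in the member values was not tested, and in whole tissue fewer cells of a type cannot be told apart from less RNA per cell.

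No member passed the test in any comparison. Limma with Benjamini-Hochberg adjustment called 0 of the 13 member probe sets after 1 day, 0 after 3 days and 0 between the times, against a background of 0 percent of the 5247 tested probe sets in each case, and its F test over the 3 groups also called 0 percent. At an unadjusted p under 0.05 the members counted 0 after 1 day (background 1.01 percent), 1 after 3 days (1.72 percent) and 1 between the times (1.83 percent), in both cases Furin X55660_at, which had to be high at 3 days to be tested at all. Counted by gene, 6 of 8 stood higher and 2 lower than control at 1 day, with a median of 0.10, and 6 higher and 2 lower at 3 days, with a median of 0.27. Of all 5247 tested probe sets, 2763 were higher at 1 day and 2715 at 3 days, with medians of 0.02 and 0.016. Both comparisons share the same 3 control arrays.

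**Figure D1:**
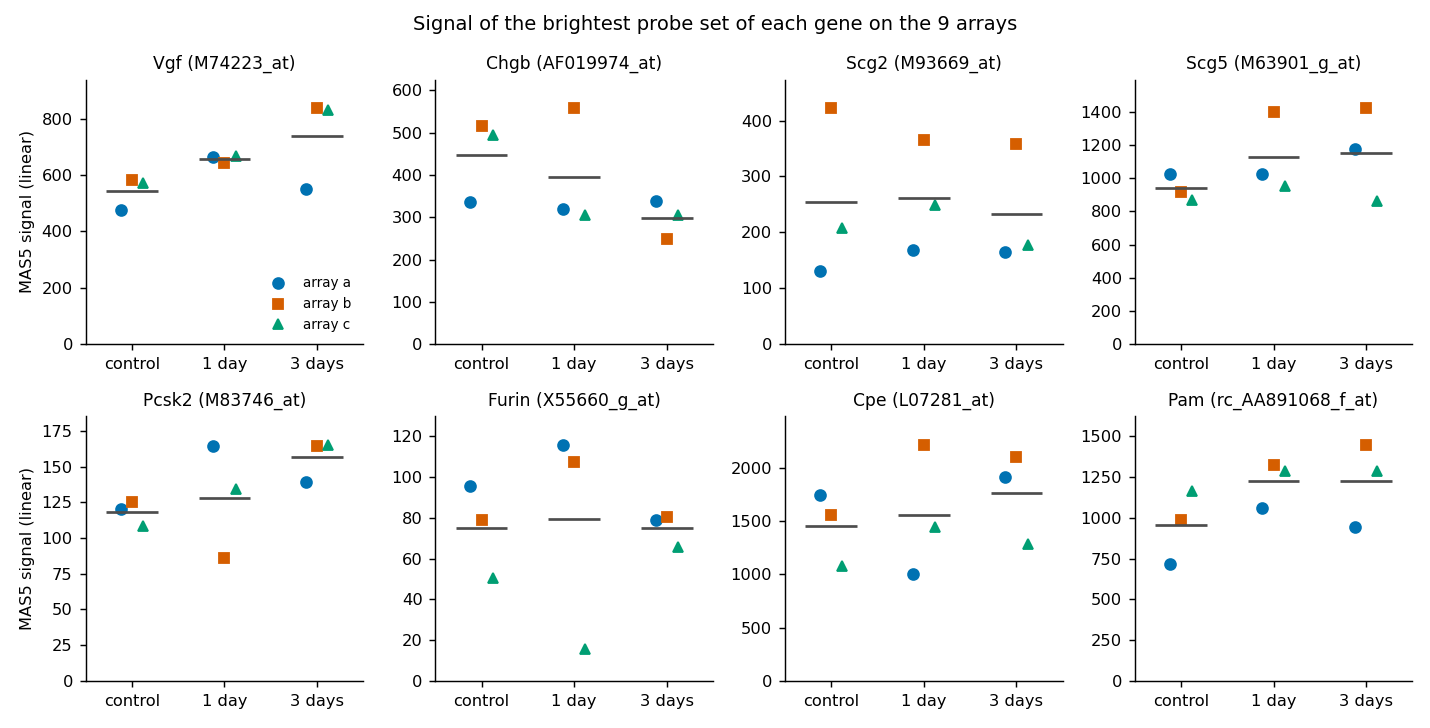
MAS5 signal (linear scale) of the brightest probe set of each of the 8 genes on the 9 arrays, by dehydration group; symbols mark the array letters and bars the group means. Vgf lies above its control range on all 3 arrays at 1 day, Pcsk2 on all 3 arrays at 3 days, and Scg2 is ordered by letter rather than by group.

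Vgf, a granin-like granule protein, stood higher at both times. Its signals were 477.1, 583.9 and 570.0 on control arrays a, b and c, 662.9, 642.1 and 666.3 at 1 day, and 550.1, 837.4 and 831.7 at 3 days. Every 1-day array exceeded the highest control, while at 3 days array a fell inside the control range. Group means were 544 ± 58.1, 657 ± 13.1 and 740 ± 164 (SD, n = 3). The difference from control was 0.28 ± 0.24 at 1 day and 0.42 ± 0.24 at 3 days, or 1.34-fold with a 95% interval from 0.931 to 1.93 (limma adjusted p = 1.00 for both). Against the array of the same letter, Vgf was higher on 3 of 3 arrays at each time. Vgf was the 1 of 13 member probe sets without overlap at 1 day. At that time 2.63 percent of all tested probe sets were higher and 1.58 percent lower without overlap. The 1-day arrays also had a ratio of 3' to 5' beta-actin signal of 1.13 to 1.48, above the 0.743 to 1.07 of the controls. On the 3-day arrays this ratio spanned 0.991 to 1.43, overlapping the controls. For Gapdh the 1-day arrays (0.850 to 1.05) overlapped the controls (0.926 to 1.09), and so did the 3-day arrays (0.892 to 1.55). The part of these ratios in the Vgf values was not tested.

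Chgb, a granin of the chromogranin family, went the other way. It read 335.7, 514.7 and 494.2 in control, 318.9, 558.0 and 305.7 at 1 day, and 339.1, 249.2 and 306.3 at 3 days. Arrays b and c carried the decline at 3 days, and array a did not move, so that the groups overlapped. Without control array c and 1-day array c the 1-day value of Chgb turned from -0.21 ± 0.30 to 0.021, and the 3-day value was -0.49. With all arrays the difference from control at 3 days was -0.57 ± 0.30, or 0.675-fold with a 95% interval from 0.428 to 1.06 (limma adjusted p = 1.00). No other gene of the 8 had a negative difference as large by its brightest probe set at 3 days.

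Scg2, the precursor of secretoneurin, varied more between letters than between groups. Its signals were 130.3, 422.4 and 208.1 in control, 168.2, 365.1 and 248.9 at 1 day, and 164.7, 358.4 and 177.1 at 3 days. In each group array b was highest and array a lowest. The differences from control were 0.13 ± 0.46 and -0.045 ± 0.46. The second of these, 0.970-fold, has a 95% interval from 0.479 to 1.96, which narrowed to 0.709 to 1.33 with the replicate letter as a block. After quantile normalization the 3-day value was 0.0059, on the other side of 0.

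Scg5, the Pcsk2 chaperone, has a pair of probe sets drawn from the same sequence. The brighter, M63901_g_at, read 1026.8, 918.2 and 870.9 in control, 1025.1, 1401.5 and 952.4 at 1 day, and 1175.7, 1423.0 and 865.9 at 3 days. The dehydrated arrays of letter b stood above all the others, and the groups overlapped, with differences from control of 0.24 ± 0.26 at 1 day and 0.27 ± 0.26 at 3 days. The dimmer, M63901_at, read 221.5, 286.1 and 157.6 in control, 246.4, 449.7 and 165.2 at 1 day, and 240.9, 400.9 and 145.1 at 3 days (0.29 ± 0.44 and 0.16 ± 0.44). Without control array c and 1-day array c its 3-day value was -0.059. Here the letters did not overlap at all: b was highest, a intermediate and c lowest in each group.

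**Figure D2:**
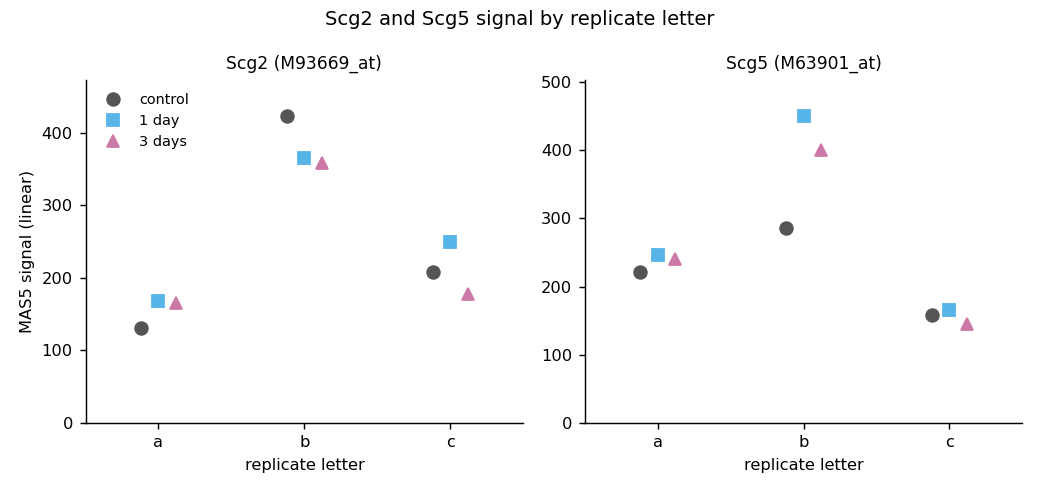
MAS5 signal (linear scale) of Scg2 and of the dimmer Scg5 probe set against the replicate letter, with symbols for the 3 dehydration groups. Letter b spans 358.4 to 422.4 for Scg2 and 286.1 to 449.7 for Scg5, above letters a and c in both panels.

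This pattern was tested after it had been seen, with an F test of the letters in a limma fit that also held the groups. Scg2 (adjusted p = 0.032) and Scg5 M63901_at (adjusted p = 0.032) differed among letters, and the other 11 member probe sets did not pass; the fit called 187 probe sets, or 3.56 percent. Scg5 M63901_g_at did not pass (limma adjusted p = 0.28). The granule protein gene Scg3, which is no member, read 252.7, 418.6 and 306.6 on the arrays of letter a, and between 580.0 and 620.5 on those of letters b and c.

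Vgf and Scg2 share a sequence feature that the choice of genes did not use. Among the promoters of the members (250 bases before the start site, RefSeq, GRCr8; 7 of the 10 genes are in that table, not Chga, Pcsk1 or Furin), the palindromic cAMP response element TGACGTCA, the site of CREB-family factors, occurred in these 2 of 7 and in 1.59 percent of all 33469 promoters of that length. The stretch around it is shown for both, 5′ to 3′, with the element in capitals. It starts 90 bases before the start site of Vgf and 123 bases before that of Scg2, and each window lies within the annotated span of its gene, upstream of the start site used in the table.
Vgf, chr12:25277063-25277150, minus strand: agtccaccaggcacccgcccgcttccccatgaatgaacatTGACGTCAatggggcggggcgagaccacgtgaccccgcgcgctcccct
Scg2, chr9:88256942-88257029, minus strand: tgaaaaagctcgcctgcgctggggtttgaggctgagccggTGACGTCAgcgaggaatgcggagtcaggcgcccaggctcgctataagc

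The arrays did not show these genes moving as a pair: Vgf differed from control by 0.42 ± 0.24 at 3 days and Scg2 by -0.045 ± 0.46, and the difference between the genes was not tested. Vgf also held an E-box, CACGTG, 65 bases before its start site, a motif of 5.59 percent of the promoters, and a TATA box, TATAAA on the sense strand, 41 bases before it (8.06 percent). The GC box GGGCGG, searched on both strands, occurred in the promoters of Vgf, Chgb, Scg5, Pcsk2 and Cpe, and in 30.5 percent of all. Such matches are descriptions of these letters only.

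Furin, the convertase of the trans-Golgi network, gave the largest difference among the members, on 1 of its probe sets. X55660_at read 23.4, 19.0 and 15.0 in control, 30.2, 27.5 and 5.1 at 1 day, and 92.8, 64.1 and 82.3 at 3 days. All 3-day arrays lay above all control and all 1-day arrays. The group means were 19.1 ± 4.2, 20.9 ± 13.8 and 79.7 ± 14.5 (SD, n = 3), a difference from control of 1.86 ± 0.52 at 3 days, or 3.62-fold. It failed the adjustment (limma adjusted p = 1.00; 0.87 to 1.00 over its 19 alternatives). Since this probe set entered the test only through its 3-day signal, its values are a description. It was higher on 3 of 3 arrays against the same letter, by 1.82, 1.57 and 2.18. Against 1 day the difference was 1.95 ± 0.52 (limma adjusted p = 0.998), and at 1 day it stood at -0.096 ± 0.52. Without control array c and 1-day array c the 3-day difference was 1.72, the difference between the times 1.34, and the 1-day value 0.39.

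The other Furin probe set, X55660_g_at, did not follow. It read 95.5, 79.2 and 50.6 in control, 115.9, 107.2 and 15.8 at 1 day, and 79.2, 80.4 and 65.7 at 3 days. Its 3-day mean equalled its control mean, at 75.1, with a log2 difference of 0.038 ± 0.60 and a 95% interval from 0.413-fold to 2.56-fold. The per-array gap between the probe sets (X55660_at minus X55660_g_at, log2) ran from -1.86 to -1.52 in control and from -0.31 to 0.31 at 3 days, a description of a probe set noticed for its 3-day signal. Both probe sets carry the sequence accession X55660 in their names, and the stretch of transcript each one reads is not stated there. Both were at their lowest on 1-day array c, which has a narrow range of signal; without it and control array c, X55660_g_at stood at 0.34 at 1 day and -0.21 at 3 days.

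**Figure D3:**
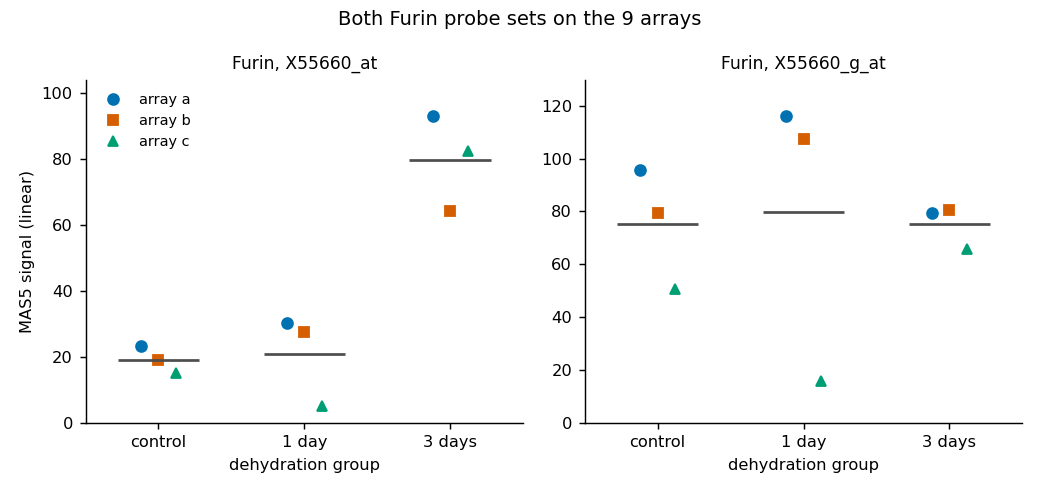
MAS5 signal (linear scale) of both Furin probe sets on the 9 arrays, by dehydration group; symbols mark the array letters and bars the group means. X55660_at lies between 64.1 and 92.8 at 3 days, above its other 6 arrays, while X55660_g_at overlaps across all groups.

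Pcsk2, the convertase that acts within granules, stood higher at 3 days by its brighter probe set. M83746_at read 120.5, 125.1 and 108.4 in control, 164.3, 86.1 and 134.2 at 1 day, and 139.5, 164.7 and 165.3 at 3 days. The 3-day arrays lay above all control arrays, whereas the 1-day arrays spread to either side. The 1-day difference was 0.071 ± 0.28, and -0.042 without control array c and 1-day array c. At 3 days it was 0.39 ± 0.28, or 1.31-fold with a 95% interval from 0.859 to 2.01 (limma adjusted p = 1.00). S40669_s_at, with signals between 21.3 and 59.4, stood at -0.21 ± 0.43 and -0.096 ± 0.43. Pcsk2 M83746_at and Furin X55660_at were the 2 of 13 member probe sets that were higher without overlap at 3 days. Furin X55660_at passed the filter only through its 3-day arrays, so its place in this count was favoured in advance. Of all tested probe sets, 4.73 percent were higher without overlap, and 0 members were lower without overlap (background 3.01 percent). Between the times Furin X55660_at alone was higher without overlap, with the same limit (background 3.05 percent higher, 2.67 percent lower).

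Cpe, the carboxypeptidase that follows the convertases, varied widely within each group. It read 1740.5, 1555.8 and 1074.8 in control, 1001.9, 2216.5 and 1445.4 at 1 day, and 1910.9, 2104.4 and 1281.3 at 3 days. Each 3-day array was above the control array of its letter, and the groups still overlapped. The difference was 0.047 ± 0.34 at 1 day and 0.27 ± 0.34 at 3 days, or 1.21-fold with a 95% interval from 0.722 to 2.03. Without control array c and 1-day array c these became -0.14 and 0.070. At 3 days bright probe sets in general leaned higher: among the other 521 in the brightest 10 percent, 313 were higher and 208 lower, and their median was 0.084. After quantile normalization the 3-day value of Cpe was 0.16. The other bright members Vgf, Scg5 M63901_g_at and Pam rc_AA891068_f_at then stood at 0.43, 0.25 and 0.29, against 0.42, 0.27 and 0.36 without it. The part of the general lean in these values was not tested.

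Pam, the amidating enzyme, has 3 tested probe sets, and they disagreed at 3 days. The brightest, rc_AA891068_f_at, read 713.8, 989.4 and 1164.4 in control, 1058.9, 1326.6 and 1287.6 at 1 day, and 944.3, 1447.8 and 1285.8 at 3 days. Every dehydrated array was above the control array of its letter, and the groups overlapped through control array c (0.38 ± 0.27 and 0.36 ± 0.27; limma adjusted p = 1.00). The probe set rc_AA799575_f_at read 116.4, 165.1 and 194.0 in control, 124.7, 234.1 and 230.0 at 1 day, and 88.5, 146.6 and 115.4 at 3 days. By letter it was higher on 3 of 3 arrays at 1 day and lower on 3 of 3 at 3 days (0.28 ± 0.33 and -0.43 ± 0.33). The third, E03428cds_s_at, read 291.7, 504.4 and 496.6 in control, 502.3, 516.0 and 486.5 at 1 day, and 388.3, 658.9 and 373.3 at 3 days (0.26 ± 0.30 and 0.13 ± 0.30), with overlap between all groups. All 3 stood higher than control at 1 day and only rc_AA799575_f_at lower at 3 days. The suffix f marks probe sets whose probes can match several related sequences, so these values may not come from Pam transcripts alone.

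**Figure D4:**
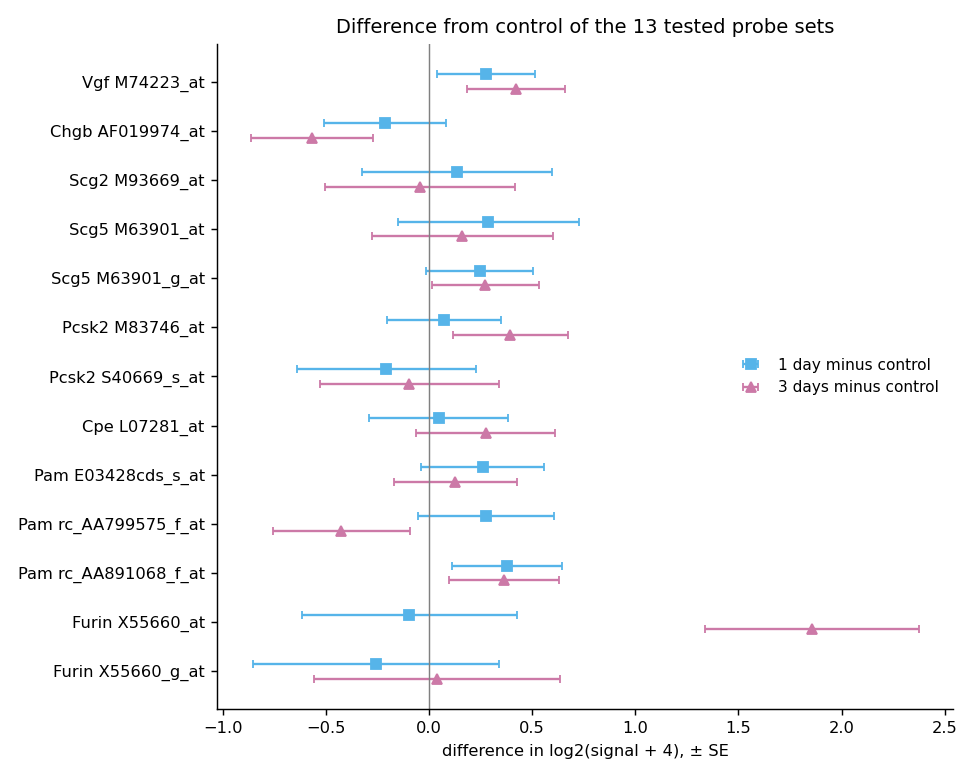
Difference from control in log2(signal + 4) of the 13 tested probe sets after 1 day and after 3 days; points are limma estimates and bars their standard errors over 3 arrays a group. Furin X55660_at, which entered the test only through its 3-day signal, stands at 1.86 after 3 days. All other values lie between -0.57 and 0.42.

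By the brightest probe sets, the order of the 3-day differences ran from Vgf (0.42), Pcsk2 (0.39), Pam (0.36), Cpe (0.27) and Scg5 (0.27) to Furin (0.038), Scg2 (-0.045) and Chgb (-0.57). Neighbours in this order lay closer together than the larger of their standard errors, except Scg2 and Chgb at its lower end, and differences between genes were not tested. Between 1 and 3 days the 8 genes ranged from -0.35 (Chgb) to 0.32 (Pcsk2), with Vgf at 0.14, Cpe at 0.23, Furin at 0.30, Scg5 at 0.027, Pam at -0.014 and Scg2 at -0.18. Without control array c and 1-day array c, Furin (-0.55), Scg5 (-0.083) and Pam (0.026) lay on the other side of 0. The lower value of Pam rc_AA799575_f_at against 1 day was -0.70 ± 0.33 (limma adjusted p = 0.998).

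The wider pathway did not pass either. A list of 42 further genes of granule formation and precursor processing had 25 tested; 14 stood higher and 11 lower at 1 day (median 0.031), and 15 higher and 10 lower at 3 days (median 0.067), with 0 called by limma at each time. At 3 days the smallest p in the list belonged to Gnas, which encodes a G protein subunit and the granin-like protein NESP55, with signals of 2458.0, 2536.1 and 1413.7 in control and 3186.4, 3127.0 and 4448.4 at 3 days (0.78 ± 0.34, no overlap, limma adjusted p = 1.00). Over all tested probe sets, 4.73 percent were higher without overlap at 3 days. Control array c carried part of the Gnas difference, and without that array Gnas stood at 0.50. Nucb1, a calcium-binding Golgi protein, stood at 0.56 ± 0.30, and at 0.35 without control array b. Cadps2, which primes granules for release, was lower without overlap at 3 days, as were 3.01 percent of all tested probe sets. Its difference was -0.996 ± 0.57, and -0.43 without 3-day array b. Scg3 stood at 0.090 ± 0.39, and at -0.32 without control array a. The proSAAS gene Pcsk1n had no probe set with 1 symbol.

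Of 23 prohormone genes, the substrates of this machinery, 18 were tested; 13 stood higher and 5 lower at 1 day (median 0.12), and 12 higher and 6 lower at 3 days (median 0.22), again with 0 called by limma. The main products of the nucleus all stood higher than control without overlap at 3 days. The differences were 0.95 ± 0.33 for Avp (vasopressin), 1.72 ± 1.05 for Oxt (oxytocin) and 0.58 ± 0.29 for Pdyn (dynorphin). Over all tested probe sets, 4.73 percent were higher without overlap at 3 days. Among the 521 non-member probe sets in the brightest 10 percent, 64 were. Oxt read 3074.1, 2331.1 and 208.3 in control and 3909.8, 3218.7 and 4356.1 at 3 days, so that control array c set most of its difference. Without that array Oxt stood at 0.50, Avp at 0.75 and Pdyn at 0.63. Among 10 transcription factor genes listed as regulators, 7 were tested, with 0 called by limma. At 1 day 1 was higher and 6 lower (median -0.090), and at 3 days 6 were higher and 1 lower (median 0.070).

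As a description of profile, the 3 tested probe sets of other genes most like each member's brightest were taken. The measure was Pearson r of log2(signal + 4) over the 9 arrays, which share groups and letters. Any probe set of another gene could match, not only its brightest. Scg2 was most like the cannabinoid receptor gene Cnr1 (r = 0.97), Nae1 (0.97) and Il33 (0.97). Vgf was most like Lta4h (0.86), the member Pam (0.84) and the vesicle fusion gene Napa (0.84). Chgb was most like M18416_at of the immediate early gene Egr1 (0.91), Ndn (0.90) and Dglucy (0.89). The brightest Egr1 probe set, AF023087_s_at, read its highest on 3-day array b (433.1), where Chgb read its lowest (249.2). Cpe was most like the synaptic scaffold gene Homer1 (0.95), Sts (0.93) and AA799389_at of the vesicle GTPase gene Rab3b (0.91). Another Rab3b probe set, AA799389_g_at, was near Scg5 (0.91), between Dpys (0.91) and Slfn2 (0.91). Pcsk2 stood nearest to Rdh16 (0.96), Timm17a (0.94) and Grip2 (0.94), Pam to Mydgf (0.96), Spint2 (0.93) and Aimp2 (0.93), and Furin X55660_g_at to Bcat1 (0.98), Col26a1 (0.98) and Scarb2 (0.97). Among the members themselves the highest r was that of Vgf and Pam, followed by Scg5 and Cpe (0.79), and the lowest that of Chgb and Pcsk2 (-0.84).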

How the data were processed

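The deposited table holds 1 signal intensity per probe set and array, made by the authors, who used MAS5 per the submitters' processing notes; the version and settings are not given in the sources used here. All arrays have a mean near 100.1 after trimming 2 percent at each end, read from the values. Symbols come from the platform annotation, and 59 Affymetrix controls were left out.

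From the intensities, log2(signal + 4) was computed without further scaling, and probe sets with a mean signal under 23.1 (the 40th percentile) were dropped. A model of 3 group means was fitted over the 9 arrays in limma 3.58.1 (R 4.3.3) with an intensity trend, two-sided tests and Benjamini-Hochberg adjustment over 5247 probe sets at 0.05. Fold changes of dim genes are understated on this scale. The fit was tested on simulated data with independent noise on each array. That simulation held no letter effect, so it does not cover the likeness of same-letter arrays. The precision is limited by 3 arrays a group: the median standard error was 0.40, and 0.30 with the replicate letter as a block.

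Once group means were subtracted, same-letter arrays correlated in all 9 pairs (r from 0.17 to 0.47; other pairs from -0.33 to 0.12), so the letters were taken to pair the arrays, from the titles and these values. Standard errors and intervals come from the fit without the letters unless stated. With the letters as a block, the 3-day 95% intervals were 0.997 to 1.80 for Vgf, 0.442 to 1.03 for Chgb and 0.885 to 1.95 for Pcsk2 M83746_at. Each of these still lay on both sides of no change. That of Pam rc_AA799575_f_at between the times, 0.450 to 0.839, did not, though it failed the adjustment (limma adjusted p = 0.770 with letters blocked). Furin X55660_at, tested only through its 3-day signal, is left out here.

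All 10 members were named whatever their values. From the list of further granule genes the 3 with the smallest p against control were named, with Scg3 and Pcsk1n; from the prohormones Avp, Oxt and Pdyn; and for each member the 3 genes of most similar profile. Members, lists and tests were chosen with earlier results of these data known. Alternatives covered the pseudocount, filter, normalization, variance prior, groups fitted, replicate letter as a block, single arrays and probe sets. Figures used Python 3.11.15 and matplotlib 3.10.9.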

Additional observations from a re-analysis of the deposited data

Results flagged for a closer look

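The Pam probe set rc_AA799575_f_at was above the control array of its letter on all 3 arrays at 1 day and below it on all 3 at 3 days, opposite directions at the later and earlier time. The difference between the times was -0.70 on the log2 scale. It was tested in the same fit and did not pass (limma adjusted p = 0.998, and 0.770 with letters blocked); the other tested Pam probe sets stood at -0.014 and -0.13 between the times.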

How the results depend on the processing

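Counts of probe sets called by limma stayed at 0 in each comparison, among all probe sets and among the members, under every alternative run, including the fit with the replicate block, where 0 passed and 136, 270 and 275 had an unadjusted p under 0.05 (53, 90 and 96 without it); the block changed no call. Of 786 member values under alternatives, 731 kept their direction and 55 did not, 39 of the latter with 1 array left out; where a direction changed, the cause was not tested. Vgf and Pcsk2 M83746_at at 3 days, Chgb at 3 days (-0.76 to -0.45 with 1 array left out) and Furin X55660_at at 3 days (1.72 to 1.998; 1.44 with a pseudocount of 16 and 2.01 with 1) kept theirs; Furin X55660_at is too dim to enter the filter at the 60th percentile. With 1 array left out, values crossed 0 as follows. At 1 day they were Cpe (-0.25 to 0.33), Furin X55660_at (-0.43 to 0.52), Furin X55660_g_at (-0.71 to 0.59), Pcsk2 M83746_at (-0.13 to 0.32), Pcsk2 S40669_s_at (-0.46 to 0.051), Scg2 (-0.25 to 0.58), Scg5 M63901_at (-0.093 to 0.62). At 3 days they were Furin X55660_g_at (-0.21 to 0.23), Pam E03428cds_s_at (-0.13 to 0.27), Pcsk2 S40669_s_at (-0.44 to 0.15), Scg2 (-0.43 to 0.40), Scg5 M63901_at (-0.20 to 0.52). Between the times they were Cpe (-0.051 to 0.52), Furin X55660_g_at (-0.55 to 0.75), Pam E03428cds_s_at (-0.39 to 0.013), Pam rc_AA891068_f_at (-0.14 to 0.16), Pcsk2 S40669_s_at (-0.23 to 0.36), Scg2 (-0.53 to 0.095), Scg5 M63901_at (-0.49 to 0.25), Scg5 M63901_g_at (-0.14 to 0.22). Without both control c and 1-day c, values that changed direction at 1 day were Chgb (0.021), Cpe (-0.14), Pcsk2 M83746_at (-0.042), Furin X55660_at (0.39) and Furin X55660_g_at (0.34); at 3 days Scg5 M63901_at (-0.059) and Furin X55660_g_at (-0.21); and between the times Scg5 M63901_g_at (-0.083), Pam rc_AA891068_f_at (0.026), Pcsk2 S40669_s_at (-0.15) and Furin X55660_g_at (-0.55). With the mean of all probe sets of a gene, Pcsk2 stood at -0.069 at 1 day, Pam at -0.11 at 3 days and Scg5 at -0.049 between the times. Quantile normalization turned Scg2 at 3 days (0.0059) and Scg5 M63901_g_at between the times (-0.0067). Dim probe sets, such as those of Furin, are limited by their signal over background.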
